A study of Mus musculus with 45 samples.

Results

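Mice 8 h after their last chronic intermittent ethanol (CIE) session were compared with air-exposed mice killed at the same time. Each change was taken between 10 of the 45 arrays. By their labels, 5 were from CIE mice and 5 from control mice killed at 8 h, named CIE_8h and Ctrl_8h here. The arrays were taken by these labels alone. Standard errors (SE) and p-values came from 1 fit to all 45 arrays, so they use the spread within groups at all 4 times. Each array held RNA from the nucleus accumbens of a separate adult male C57BL/6J mouse. CIE mice breathed ethanol vapor at 10 to 13 mg of ethanol per liter of air for 16 h a day on 4 days, with 4 such cycles separated by 7 d without ethanol, and were given ethanol at 1.6 g/kg together with pyrazole at 1 mmol/kg ahead of each cycle. Ctrl mice had the same chambers, cycles and pyrazole with saline in place of ethanol, so that both groups carried pyrazole, which blocks alcohol dehydrogenase. The study's methods describe 6 mice in a group, and 5 arrays of each group were analysed here. Mice carry the numbers of their labels, and values per array are always given in the order Ctrl 4, 8, 42, 50 and 79, then CIE 1, 15, 23, 25 and 51, as log2 expression.

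The nucleus accumbens is the ventral part of the striatum, where GABAergic medium spiny neurons receive dopamine and glutamate input that serves reward and motivation. As ethanol clears after vapor exposure, rodents pass through acute withdrawal, a state of hyperexcitability in which adrenal glucocorticoids are also raised. Glucocorticoids enter the brain and switch on genes through the glucocorticoid receptor, with glia and endothelial cells among the responding cells. Notch signalling between neighboring cells keeps Hes and related repressors on in astrocytes, in neural progenitors and in vessels. The endoplasmic reticulum (ER) folds secreted and membrane proteins and, when loaded, raises its own chaperones.

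All 22 measured medium spiny neuron markers were above the median probeset on all 10 arrays, with group means of 8.77 to 13.72. Cholinergic interneuron genes Chat, Slc18a3 and Slc5a7 were not. Of 12 choroid plexus and ependymal markers 2 were above the median on every array, and of 15 cortical pyramidal markers 9 were. Array medians lay between 6.94 and 6.96. The mean of the oligodendrocyte markers, with each gene centered on the 10 arrays, was -0.93 in Ctrl 42 against -0.30 to 0.43 on the other arrays, and that of the cortical markers ran from -0.76 in Ctrl 4 to 0.50 in CIE 25, so arrays differed in these markers within both groups.

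Of 45037 probesets, 28 passed an adjusted p of 0.01 between CIE and Ctrl at 8 h (0.0622%), 14 higher (0.0311%) and 14 lower (0.0311%) in CIE. At 0.05, 101 passed (0.224%), 60 higher (0.133%) and 41 lower (0.091%). The 28 came from 20 genes with a symbol of their own, 12 higher and 8 lower, besides 5 probesets that are shared by several symbols and 1 without a symbol. CIE and Ctrl arrays did not overlap for 19 of the 20 genes, against 868 of all probesets (1.93%). As the 20 genes were selected by their difference between these same arrays, this separation is no independent support. The 20 changes had a median size of 0.56 on the log2 scale, 3 of them were larger than 1 and 8 were smaller than 0.5. In tissue, fewer cells of a type and less RNA per cell cannot be told apart, here and in every result that follows.

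Among the 8 lowered genes were the Notch targets Hes5 and Nrarp and the progenitor transcription factors Nr2e1 and Sox21. Hes5, the basic helix-loop-helix repressor that Notch induces, lies at chr4:154960626-154962372 in GRCm38.p6. It measured 8.80, 8.69, 8.90, 9.09 and 8.47 in Ctrl and 7.54, 7.52, 7.12, 7.13 and 7.63 in CIE. The highest CIE array stood below the lowest Ctrl array. Hes5 fell by 1.40 (SE 0.14, n = 5 and 5), to 0.379 times its Ctrl level, with an adjusted p of 7.83e-08. Its other probeset fell by 1.18 (adjusted p = 2.86e-07).

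Within the 250 bases before the Hes5 start that RefSeq's promoter table gives, the 6 letters TGGGAA, which are the core bound by the Notch effector Rbpj, occurred 2 times, on either strand, at 226 to 221 and at 82 to 77 bases before the start. The window, chr4:154960673-154960922, begins after the first base of the gene interval given above, so that both matches lie inside that interval. At least 2 matches were present in 3.79% of 32851 promoter windows of this table that hold 250 bases before and 50 after a start. The stretches of 30 bases around both matches are printed because Hes5 had the smallest p of all genes, with the match in capitals, 5′ to 3′ on the + strand of GRCm38.p6, the first at chr4:154960685-154960714 and the second at chr4:154960829-154960858:
Hes5 far match (TTCCCA is TGGGAA on the other strand): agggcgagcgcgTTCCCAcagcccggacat
Hes5 near match: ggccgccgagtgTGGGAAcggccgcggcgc

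Nrarp, a Notch-induced protein that dampens the Notch complex (chr2:25180758-25183339), measured 9.90, 9.57, 9.78, 10.02 and 9.52 in Ctrl and 9.004, 9.11, 8.94, 8.81 and 9.36 in CIE. The groups did not overlap, and CIE 51 came closest to the Ctrl arrays. Nrarp fell by 0.71 (SE 0.13, adjusted p = 0.00447), to 0.61 times the Ctrl level. Its other, dimmer probeset differed by -0.24 (SE 0.11, adjusted p = 0.658). Fabp7, the brain fatty acid binding protein of radial glia and astrocytes and a known Notch target, measured 9.93, 10.10, 10.02, 9.86 and 9.91 against 9.30, 9.30, 9.37, 9.70 and 9.22. It fell by 0.58 (SE 0.13, adjusted p = 0.0284), again without overlap, but passed 0.05 in 1 of 10 fits that each left out 1 array, the one without CIE 25, with an adjusted p of at most 0.104.

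Other Notch target genes did not pass. Of 16 measured targets, each read at its brightest probeset, 3 fell and none rose, against 0.0934% of 18193 genes that fell. A positive change was seen in 8 of 16, against 51.7% of all genes, and the median of 0.00 was equal to that of all genes. Hes1 differed by 0.12 (SE 0.20, adjusted p = 0.97) and Hey2 by 0.26 (SE 0.13, adjusted p = 0.677). None of 26 receptors, ligands and regulators passed, and 10 of them had a positive change, beside the same 51.7% of all genes. Notch1, a receptor, measured 9.08, 9.19, 9.06, 9.06 and 9.14 in Ctrl and 8.67, 8.86, 8.75, 8.94 and 8.58 in CIE, without overlap, and differed by -0.35 (SE 0.09, adjusted p = 0.0823). Its ligand Dll1 differed by -0.32 (SE 0.11, adjusted p = 0.3), again without overlap, while Rbpj differed by -0.05 and the ligand Jag1 by -0.09.

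Among progenitor factors, Nr2e1, an orphan nuclear receptor that maintains neural stem cells (chr10:42561963-42583590), measured 7.35, 7.52, 7.83, 7.73 and 7.59 in Ctrl and 6.81, 6.56, 6.69, 7.05 and 6.84 in CIE. All CIE arrays were below all Ctrl arrays, and Nr2e1 fell by 0.81 (SE 0.13, adjusted p = 0.00058). Its other probeset differed by -0.18 (adjusted p = 0.786). TGGGAA had 1 match before the Nr2e1 start, at 150 to 145 bases on the opposite strand. Of the 20 genes, 17 had promoter windows in the table, while Manf, Xdh and Fzd2 had none. At least 1 match was held by 7 of these 17, and by 28.3% of 27025 genes. The 7 were Hes5 and Nr2e1, which fell, and Bclaf1, Depp1, Etnppl, Fam107a and Scfd1, which rose. The windows of Nrarp and Sox21, which also fell, held no match. The 250 bases before the Nr2e1 start are given on the gene's own strand, the - strand, from chr10:42583591-42583840, with the match in capitals:
Nr2e1: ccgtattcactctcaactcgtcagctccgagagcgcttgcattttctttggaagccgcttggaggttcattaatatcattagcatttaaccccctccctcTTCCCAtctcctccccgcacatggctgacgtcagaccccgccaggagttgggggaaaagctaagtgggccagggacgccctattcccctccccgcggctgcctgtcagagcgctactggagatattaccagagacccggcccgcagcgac

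Sox21, a repressor of the SoxB group in progenitors and glia, measured 7.62, 7.67, 7.55, 7.81 and 7.77 in Ctrl and 6.91, 7.38, 7.08, 7.03 and 7.37 in CIE. It fell by 0.53 (SE 0.09, adjusted p = 0.00274) without overlap. Its brighter probeset differed by -0.20 (SE 0.08, adjusted p = 0.491), so the probesets of Sox21, of Nr2e1 and of Nrarp gave unequal changes. Fzd2, a Wnt receptor, measured 8.51, 8.28, 8.37, 8.47 and 8.33 against 7.89, 7.93, 7.79, 7.98 and 7.98 and fell by 0.48 (SE 0.09, adjusted p = 0.00744).

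Further regulators of glia and progenitors fell at 0.05. The POU-domain factor Pou3f3 fell by 0.33 (adjusted p = 0.011), the Hippo coactivator Yap1 by 0.40 (adjusted p = 0.0146), the RNA-binding protein Msi1 by 0.55 (adjusted p = 0.0451) and the winged-helix factor Rfx4 by 0.44 (adjusted p = 0.0451). The brightest Msi1 probeset differed by -0.07 (SE 0.13, adjusted p = 0.976). Of these genes, Rfx4 overlapped, because Ctrl 79 measured 9.14 and CIE 51 measured 9.21. As a list, 1 of 22 neural progenitor transcription factors fell, 6 of 22 had a positive change and the median was -0.05. Of 31 Wnt receptors and targets 1 fell, with a median of 0.02. Of all genes, 0.0934% fell and 51.7% had a positive change. Sox2 differed by -0.30 (SE 0.08, adjusted p = 0.146). None of 19 astrocyte markers passed (median 0.00), with Aqp4 at -0.01, Slc1a3 at 0.03 and Gfap at 0.44 (SE 0.29).

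**Figure D1:**
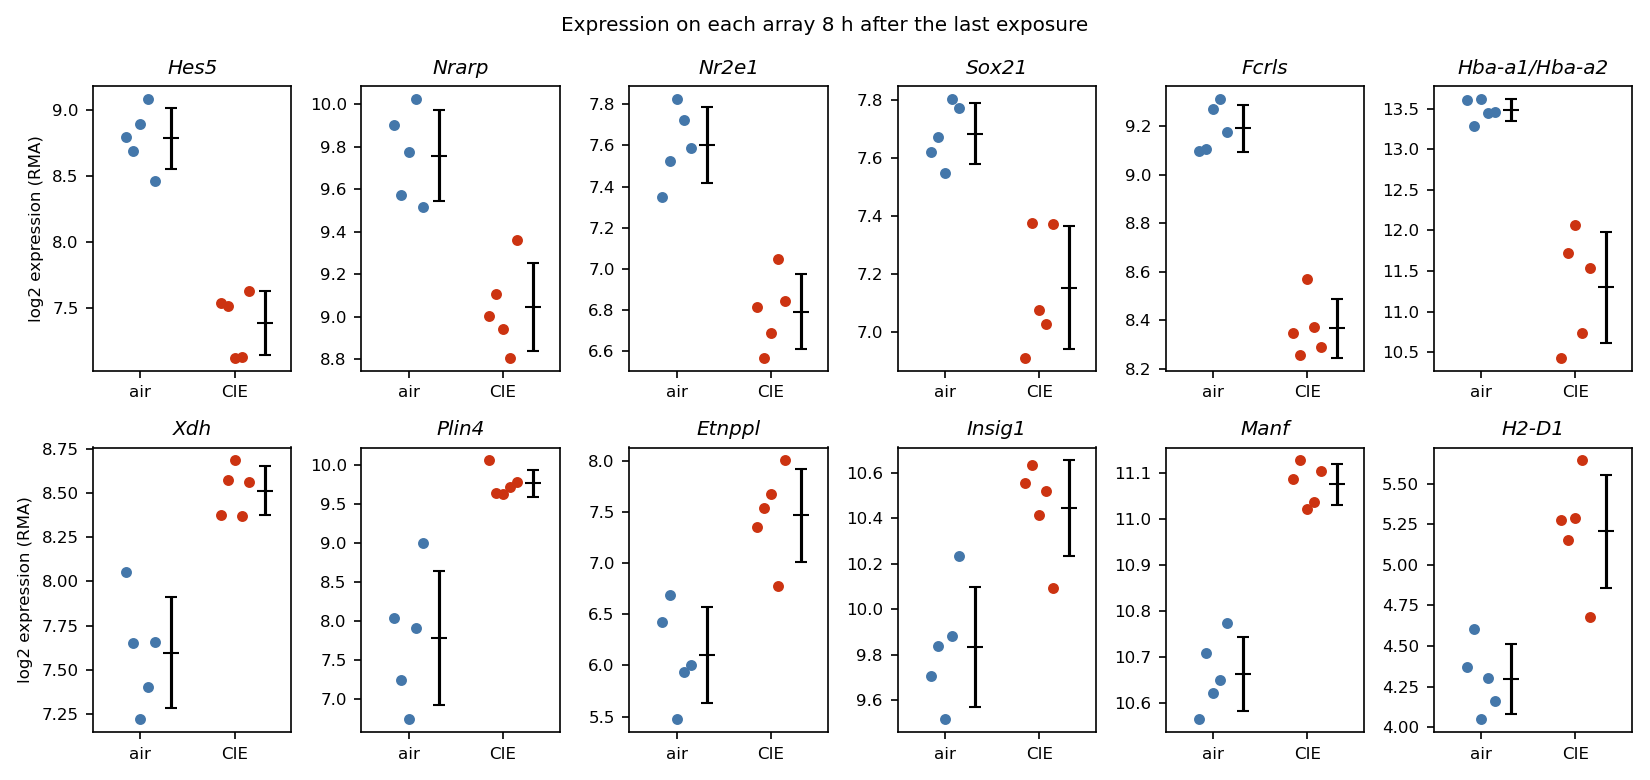
Log2 expression of 12 genes on each of the 5 air and 5 CIE arrays at 8 h, 1 point per mouse, with the mean and SD of each group beside the points. Points of the 2 groups are apart in every panel except Insig1, where CIE 51 at 10.09 lies below Ctrl 79 at 10.23.

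Among immune genes, 1 microglial gene fell while the major histocompatibility complex (MHC) genes that passed rose. Fcrls, an Fc receptor-like gene that marks resting microglia, measured 9.10, 9.11, 9.27, 9.31 and 9.18 in Ctrl and 8.35, 8.26, 8.57, 8.37 and 8.29 in CIE. It fell by 0.83 (SE 0.12, adjusted p = 0.000107), to 0.564 times the Ctrl level, without overlap. It was the 1 of 18 homeostatic microglia markers that fell, against 0.0934% of all genes. The remaining 17 of 18 did not pass and the list's median was 0.02. P2ry12 differed by -0.12 (SE 0.10), Tmem119 by 0.18 (SE 0.11), Cx3cr1 by -0.23 (SE 0.17) and Csf1r by 0.07 (SE 0.07). Fcgr2b, the inhibitory Fc gamma receptor of myeloid cells, measured 7.60, 7.48, 7.19, 7.23 and 7.31 against 8.02, 7.83, 8.05, 8.08 and 7.70 and rose by 0.58 (SE 0.11, adjusted p = 0.0106), while its brightest probeset differed by 0.06 (SE 0.06, adjusted p = 0.939). None of 22 myeloid activation and complement genes passed, 21 of them had a positive change (51.7% of all genes did) and their median was 0.19.

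H2-D1, a classical MHC class I heavy chain, passed 0.01 at a dim probeset that measured 4.37, 4.60, 4.05, 4.30 and 4.16 in Ctrl and 5.28, 5.15, 5.29, 5.64 and 4.68 in CIE. There it rose by 0.91 (SE 0.17, adjusted p = 0.00522). At its brightest probeset H2-D1 measured 11.45, 11.76, 10.30, 10.65 and 10.69 against 12.86, 12.35, 12.65, 13.01 and 11.63 and rose by 1.53 (SE 0.34, adjusted p = 0.0367). These groups overlapped, since CIE 51 was below Ctrl 8. All 9 probesets of H2-D1 were higher in CIE and 5 passed 0.05, and sequences of class I heavy chains are so alike that probes may read several of them. H2-K1, another classical heavy chain, measured 11.07, 11.38, 9.95, 10.18 and 10.28 against 12.61, 11.997, 12.28, 12.66 and 11.14 and rose by 1.56 (SE 0.36, adjusted p = 0.0442). Its brightest probeset differed by 1.44 (SE 0.34, adjusted p = 0.0526). Both this H2-K1 rise and that of the brightest H2-D1 probeset lost 0.05 without Ctrl 42, 50 or 79 and without CIE 1, 15, 23 or 25, with adjusted p of at most 0.157 and 0.142.

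H2-D1 and H2-K1 shared an order of arrays, with Ctrl 4 and Ctrl 8 above Ctrl 42, 50 and 79, and CIE 51 lowest of the CIE arrays. The list of class I presentation genes had means, centered on the 10 arrays, of -0.04, 0.22, -0.67, -0.63 and -0.56 in Ctrl and 0.68, 0.19, 0.41, 0.68 and -0.28 in CIE. All 16 members had a positive change and their median was 0.55, but 1 of 16 passed (H2-D1), against 0.148% of all genes that rose at their brightest probeset. Hybridization batches are not labelled and were inferred as sets of arrays that share tied values. With these hybridization sets as a block 4 passed, and without Ctrl 8 or without CIE 51 3 passed. Without Ctrl 42, 50 or 79 or CIE 1, 15, 23 or 25 none did. With the block, the H2-K1 probeset that rose by 1.56 had an adjusted p of 0.00946 and the brightest H2-D1 probeset 0.0111. Some probesets shared by several class I symbols, looked at after their values were seen, also rose. They were H2-Q9 with H2-Q7 (2.25, adjusted p = 0.028), H2-Q6 with H2-Q8 (1.63, 0.0451) and H2-K1 with H2-D1 (1.54, 0.0382). Others did not pass, such as H2-Q5 with H2-K1 at 0.03 (adjusted p = 0.982). The light chain B2m differed by 0.84 (SE 0.22, adjusted p = 0.0904) and the peptide transporter Tap1 by 1.01 (SE 0.34, adjusted p = 0.309).

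Interferon-stimulated genes ran in the same order of arrays and did not pass. Their mean was 0.35, 0.41, -0.75, -0.71 and -0.50 in Ctrl and 0.53, 0.07, 0.47, 0.68 and -0.54 in CIE, so the groups overlapped, with CIE 1, 23 and 25 above every Ctrl array and Ctrl 42 and 50 below every CIE array. None of 28 members passed, although all 28 had a positive change and their median was 0.42. The group difference had the same sign as the median in 3 of the 5 CIE and Ctrl pairs of the same inferred hybridization set. Ifit1 differed by 0.49 (SE 0.31), Irf7 by 0.27 (SE 0.15) and Iigp1, an immunity-related GTPase, by 1.38 (SE 0.50, adjusted p = 0.382). Some class II genes, looked at after their values were seen, were higher in CIE without passing. H2-Aa was at 1.92 (SE 0.64, adjusted p = 0.286) and Cd74, the invariant chain, at 1.42 (adjusted p = 0.106). H2-Eb1 was at 1.41 (SE 0.50, adjusted p = 0.347) and H2-Ab1 at 1.21 (SE 0.51, adjusted p = 0.522). Some other class II genes differed little at their brightest probesets, with H2-DMa at 0.06 (SE 0.12, adjusted p = 0.976), H2-Ea at 0.01 and H2-Eb2 at -0.01. The part of the interferon-stimulated genes in the class I result was not tested. Of 28 cytokine, Toll-like receptor and NF-kB genes none passed, with Il1b at -0.05, Tnf at 0.03 and Ccl2 at 0.10.

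The largest falls among the probesets that passed were those of hemoglobin, read by probesets that several globin symbols share and named here after their values were seen. The brightest alpha-globin probeset (Hba-a1 and Hba-a2) measured 13.61, 13.28, 13.61, 13.44 and 13.45 in Ctrl and 10.43, 11.72, 12.06, 10.74 and 11.53 in CIE. Ctrl arrays lay close together and all CIE arrays were lower by over 1 log2 unit. The probeset fell by 2.18 (SE 0.26, adjusted p = 3.72e-06), to 0.22 times the Ctrl level. A further pair of probesets shared by Hba-a1 and Hba-a2 differed by -2.23 and -2.45 (adjusted p = 8.88e-06 and 2.11e-05), and the probeset shared by the beta-globin symbols fell by 2.27 (SE 0.29, adjusted p = 1.26e-05). Probesets of a single adult globin symbol, all dim, did not pass, at -0.01 for Hba-a1 (adjusted p = 0.997), -0.05 for Hba-a2 (adjusted p = 0.976) and -0.37 and -0.29 for Hbb-b2 (adjusted p = 0.537 and 0.371). Alas2, the erythroid enzyme that starts heme synthesis, measured 6.57, 6.43, 6.58, 6.39 and 6.63 against 5.80, 5.99, 5.78, 5.69 and 5.92, without overlap, and differed by -0.69 (SE 0.17, adjusted p = 0.0806). None of 10 blood cell markers passed, none of them was above the array median on all arrays, and the red cell anion exchanger Slc4a1, at a dim level, differed by -0.01. How far blood left in the vessels entered the globin values was not tested.

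Genes that glucocorticoids are known to induce had the most rises of the 44 lists examined. Of 31 measured members, 7 rose at 0.05 and none fell, against 0.148% and 0.0934% of all genes, the shares to be read beside every list count that follows, 28 of 31 had a positive change and the median was 0.31. For 14 of the 31 all CIE arrays were above all Ctrl arrays, which held for 1.04% of all genes. The lists and their members were chosen with earlier results of these data known. An excess over these shares is therefore no independent support. The list's mean was -0.16, -0.22, -0.43, -0.19 and -0.05 in Ctrl and 0.24, 0.25, 0.17, 0.13 and 0.25 in CIE. Ctrl 42 was lowest, and no Ctrl array reached the lowest CIE array. Ctrl 42 also had the lowest oligodendrocyte marker mean, whose part in this result was not tested. With any 1 array left out, the median stayed between 0.28 and 0.34, but the number of members that rose did not stay at 7. It was 1 without Ctrl 42, 4 without Ctrl 50, CIE 1 or CIE 15, and 5 to 7 with any other array left out. Nr3c1, the glucocorticoid receptor itself, differed by -0.08 (SE 0.07, adjusted p = 0.916).

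Plin4, a perilipin that coats lipid droplets, had the largest rise of the 20 genes. It measured 8.04, 7.25, 6.74, 7.91 and 8.999 in Ctrl and 10.06, 9.65, 9.63, 9.72 and 9.78 in CIE. Ctrl arrays spread over more than 2 log2 units while CIE arrays were tight. Plin4 rose by 1.98 (SE 0.38, adjusted p = 0.00862), or 3.94 times. Sgk1, a kinase that controls ion transport, measured 12.03, 11.99, 11.62, 12.13 and 12.04 against 12.90, 12.54, 12.88, 12.78 and 12.93 and rose by 0.84 (SE 0.19, adjusted p = 0.0357). Tsc22d3, which encodes the glucocorticoid-induced leucine zipper, measured 9.38, 9.25, 9.13, 9.46 and 9.67 against 10.18, 10.20, 10.29, 10.29 and 10.23 and rose by 0.86 (SE 0.17, adjusted p = 0.011). Neither gene's groups overlapped. Tsc22d3 kept 0.05 whichever array was left out, while Sgk1 passed in 1 of 10 such fits, without CIE 15, and had an adjusted p of at most 0.121.

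The other members that rose were the transcription factor Cebpd (0.57, adjusted p = 0.0105), the sulfotransferase Sult1a1 (0.82, adjusted p = 0.017), the glycosyltransferase Galnt15 (0.47, adjusted p = 0.0265) and the Ras-like GTPase Rasd1 (0.89, adjusted p = 0.0475). Fkbp5, a co-chaperone that restrains the receptor, rose by 0.55 (SE 0.13, adjusted p = 0.0451) at 1 probeset and differed by 0.46 (SE 0.11, adjusted p = 0.0628) at its brightest. The metallothionein Mt1 rose by 0.49 (SE 0.10, adjusted p = 0.0105) at a dim probeset and differed by 0.10 at its brightest. Hif3a, a hypoxia-inducible factor subunit that was not on the list, rose by 0.81 (SE 0.16, adjusted p = 0.011) and differed by 0.37 (SE 0.09, adjusted p = 0.0566) at its brightest probeset. Per1, which glucocorticoids also induce, differed by 0.12 (SE 0.09, adjusted p = 0.88) and Dusp1, a phosphatase, by -0.02 (SE 0.09).

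Several raised genes act in lipid, sterol and purine metabolism. Etnppl, an astrocyte enzyme that breaks down phosphoethanolamine, measured 6.43, 6.69, 5.47, 5.94 and 6.00 in Ctrl and 7.36, 7.54, 7.68, 6.77 and 8.01 in CIE. It rose by 1.37 (SE 0.24, adjusted p = 0.0037), or 2.58 times, with CIE 25 only just above Ctrl 8. Its brightest probeset differed by 0.57 (SE 0.23, adjusted p = 0.464). Insig1, which holds the sterol-sensing complex in the ER, measured 9.71, 9.84, 9.52, 9.88 and 10.23 against 10.56, 10.63, 10.41, 10.52 and 10.09. It rose by 0.61 (SE 0.11, adjusted p = 0.00328), and it was the gene among the 20 whose groups overlapped. The difference between CIE 51 and Ctrl 79, of the same inferred hybridization set, was -0.14.

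Xdh, the enzyme that turns hypoxanthine and xanthine into uric acid, measured 8.05, 7.65, 7.22, 7.41 and 7.66 in Ctrl and 8.37, 8.57, 8.68, 8.37 and 8.56 in CIE. No array of either group crossed into the other, and Xdh rose by 0.92 (SE 0.12, adjusted p = 2e-05), or 1.89 times. It was 1 of 20 purine and adenosine genes to pass (median 0.04). Adenosine deaminase, Ada, differed by 0.89 (SE 0.26, adjusted p = 0.175), without overlap, and guanine deaminase, Gda, by -0.02.

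Around these genes, 1 of 22 cholesterol genes passed (Insig1), with 19 of 22 positive and a median of 0.14, and the sterol regulator Srebf2 differed by 0.03 (SE 0.07). Of 23 fatty acid synthesis genes none passed (median 0.06), with Fasn at 0.09 (SE 0.07) and Scd1 at 0.37 (SE 0.16). Of 24 lipid droplet and fatty acid oxidation genes 1 rose, Plin4, with Plin2 at 0.04 (SE 0.07), Cpt1a at 0.19 (SE 0.06) and Pdk4 at 0.35 (SE 0.19). Pnpla7, a lysophospholipase, rose by 0.53 (SE 0.11, adjusted p = 0.0146).

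Depp1, a regulator of autophagy that FoxO factors induce, measured 7.08, 7.14, 6.95, 7.14 and 7.05 in Ctrl and 7.92, 7.25, 7.70, 7.65 and 7.66 in CIE. CIE 15 stood close to the Ctrl arrays and the other 4 CIE arrays stood well above them. Depp1 rose by 0.56 (SE 0.10, adjusted p = 0.0041), and by 0.82 (SE 0.15, adjusted p = 0.00522) at its other probeset. Of 31 FoxO and energy-sensing genes 2 rose, Depp1 and Tsc22d3, and the median was 0.03. Txnip, the thioredoxin-interacting protein, differed by 0.51 (SE 0.12, adjusted p = 0.0526) without overlap. Fam107a, a stress-induced actin-binding protein, measured 7.52, 7.52, 7.52, 7.39 and 7.32 against 7.87, 8.07, 8.04, 7.97 and 8.12 and rose by 0.56 (SE 0.10, adjusted p = 0.00432). At its brightest probeset Fam107a differed by 0.16 (SE 0.05, adjusted p = 0.23).

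**Figure D2:**
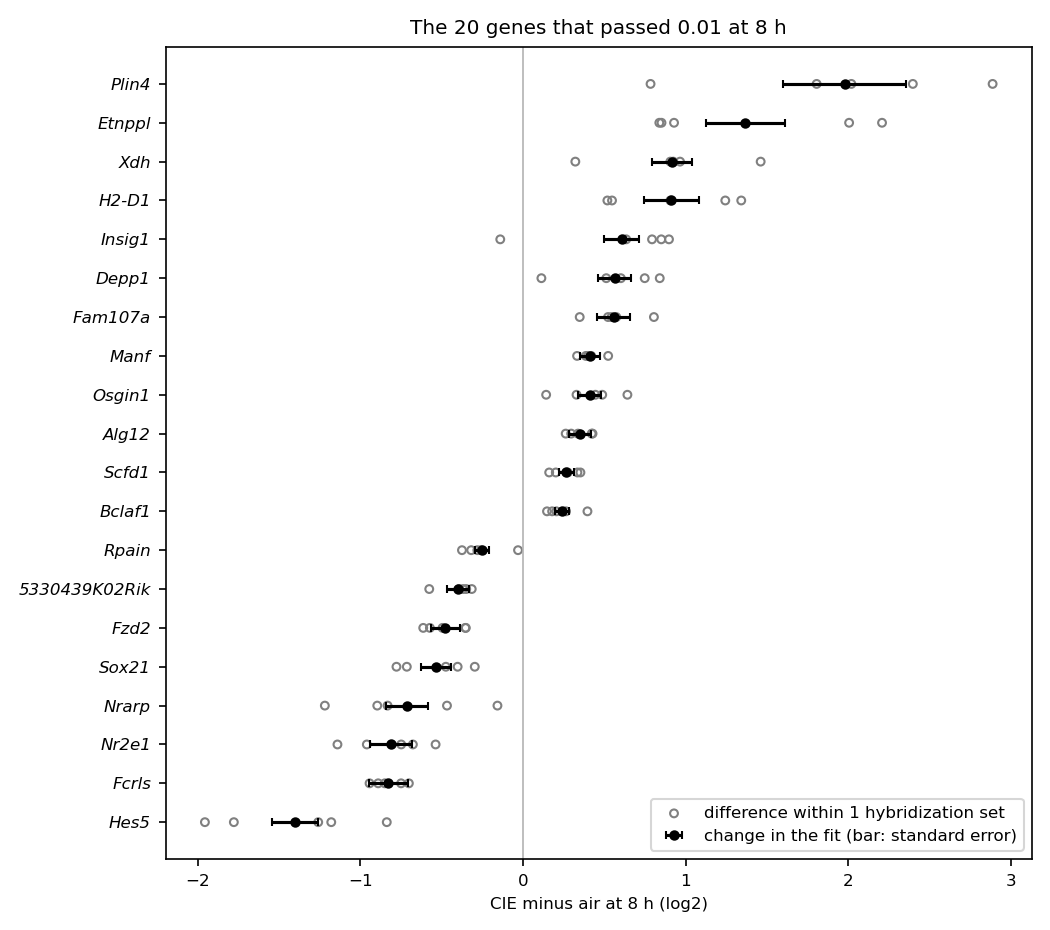
Change between CIE and air at 8 h (log2) for the 20 genes that passed 0.01, with the standard error as a bar. Open circles give the difference within each of 5 inferred hybridization sets that held 1 array of each group. The circles of 19 genes lie on 1 side of 0, and Insig1 has 1 circle at -0.14.

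A few genes of the secretory pathway rose, Manf, Scfd1, Herpud1 and Alg12, while most members of their lists did not pass. Manf, a secreted trophic factor of the ER that is induced when folding is overloaded, measured 10.56, 10.71, 10.62, 10.65 and 10.77 in Ctrl and 11.09, 11.13, 11.02, 11.04 and 11.11 in CIE. It rose by 0.41 (SE 0.06, adjusted p = 0.000112), or 1.33 times, without overlap. Scfd1, which guides vesicle fusion between ER and Golgi, measured 9.63, 9.71, 9.72, 9.63 and 9.62 against 9.90, 9.87, 9.92, 9.96 and 9.97 and rose by 0.27 (SE 0.05, adjusted p = 0.00274). Herpud1, which takes part in ER-associated degradation, measured 10.01, 10.05, 10.04, 10.10 and 10.18 against 10.28, 10.23, 10.27, 10.30 and 10.27 and rose by 0.19 (SE 0.04, adjusted p = 0.0229).

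Alg12, a mannosyltransferase that builds the N-glycan precursor, measured 6.01, 6.00, 6.01, 6.16 and 6.11 in Ctrl and 6.28, 6.33, 6.44, 6.58 and 6.41 in CIE. It rose by 0.35 (SE 0.07, adjusted p = 0.0082) without overlap, and differed by 0.19 (SE 0.10, adjusted p = 0.691) at its brightest probeset. The ER stress element, searched on both strands as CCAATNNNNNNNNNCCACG, occurred in 0.119% of the promoter windows. Alg12 was the 1 gene of the 17 with a match, at 220 to 202 bases before its start. Manf had no window and was not searched. The 250 bases before the start are shown for this match, with its fixed letters in capitals, on the - strand of chr15:88819319-88819568:
Alg12: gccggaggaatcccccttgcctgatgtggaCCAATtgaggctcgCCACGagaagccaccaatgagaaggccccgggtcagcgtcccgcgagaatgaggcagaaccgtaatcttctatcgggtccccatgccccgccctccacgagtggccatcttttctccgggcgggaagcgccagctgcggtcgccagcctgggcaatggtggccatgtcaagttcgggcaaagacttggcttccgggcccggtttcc

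The related site TGACGTGG, bound by Atf6 and Xbp1, was present in 0.676% of windows and in that of Scfd1 among the 17 genes. The Scfd1 match lay within the 50 bases after the start. The sterol element TCACCCCAC and the glucocorticoid element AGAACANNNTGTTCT were found in none of the 17, against 0.551% and 0.00913% of windows. A match is a run of letters, and binding was not measured.

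ER chaperones other than Manf did not pass. Of 22 measured, 1 rose, 20 had a positive change and the median was 0.10. The list's mean was -0.06, -0.08, -0.13, -0.08 and 0.00 in Ctrl and 0.08, 0.11, 0.09, 0.06 and 0.01 in CIE, without overlap but with Ctrl 79 and CIE 51 close together. The main ER chaperone Hspa5 differed by 0.11 (SE 0.07, adjusted p = 0.825), Hyou1 by 0.21 (SE 0.08, adjusted p = 0.386) and Creld2 by 0.16 (SE 0.09, adjusted p = 0.736). Of 26 ER stress sensors and signalling genes 1 rose, Herpud1, and the median was 0.06, with Xbp1 at -0.01 (SE 0.05), Atf4 at 0.11 (SE 0.07) and Ddit3 at 0.09 (SE 0.06). Of 48 N-glycosylation and transport genes 1 rose, Scfd1, and the median was 0.04.

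Of 18 heat shock genes and cytosolic chaperones 1 fell (0.0934% of all genes did), 2 had a positive change and the median was -0.11. The list's mean ran from -0.10 to 0.21 in Ctrl and from -0.23 to 0.04 in CIE, so the groups overlapped. The gene that fell was Dnajb1, a co-chaperone of Hsp70, which measured 11.10, 11.07, 11.07, 11.23 and 11.24 against 10.76, 11.03, 10.95, 10.79 and 10.84 and fell by 0.27 (SE 0.06, adjusted p = 0.0304). Hspa1b, the inducible Hsp70, differed by -0.36 with an SE of 0.47. Osgin1, an oxidative stress-induced growth inhibitor, measured 5.77, 5.70, 5.63, 5.68 and 5.83 against 6.21, 6.34, 6.12, 6.01 and 5.97 and rose by 0.41 (SE 0.07, adjusted p = 0.00214). It was 1 of 27 Nrf2 antioxidant genes to pass (23 positive, median 0.09), with Hmox1 at 0.38 (SE 0.10, adjusted p = 0.13) and Nqo1 at 0.15 (SE 0.09). Slc7a11, the cystine transporter, rose by 0.44 (SE 0.09, adjusted p = 0.0284) and differed by 0.26 (SE 0.12, adjusted p = 0.617) at its brightest probeset.

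The remaining genes past 0.01 belong to no common group. Bclaf1, a nuclear protein tied to transcription and RNA processing, measured 11.48, 11.48, 11.50, 11.43 and 11.33 in Ctrl and 11.75, 11.63, 11.70, 11.61 and 11.73 in CIE and rose by 0.24 (SE 0.04, adjusted p = 0.00511). Its other probesets, all dimmer, differed by -0.01 to 0.11, with adjusted p of at least 0.97. Rpain, which carries replication protein A into the nucleus, measured 9.03, 8.98, 8.98, 9.03 and 9.05 against 8.65, 8.95, 8.66, 8.77 and 8.77 and fell by 0.25 (SE 0.05, adjusted p = 0.00425). CIE 15 was the array nearest to Ctrl for Rpain, as it was for Depp1. The transcript 5330439K02Rik measured 6.93, 7.03, 7.20, 6.87 and 6.92 against 6.57, 6.63, 6.63, 6.52 and 6.61 and fell by 0.40 (SE 0.07, adjusted p = 0.00115).

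A probeset shared by Rbm3, a cold-inducible RNA-binding protein, and its pseudogene Rbm3-ps, singled out after its values were seen, measured 11.49, 11.64, 11.57, 11.44 and 11.62 against 12.02, 11.92, 11.75, 11.89 and 12.10 and rose by 0.38 (SE 0.06, adjusted p = 0.000443). A dimmer probeset of the same symbols fell by 0.90 (SE 0.21, adjusted p = 0.0442), with overlap, so the transcript's direction depends on the probeset. Cirbp, another cold-inducible protein, differed by 0.33 (SE 0.09, adjusted p = 0.153). At 0.05, 51 further genes passed, 31 higher and 20 lower. Among those not yet named, the drug efflux pump Abcb1a rose by 0.37 (adjusted p = 0.0266) and Ceacam10 by 0.65 (adjusted p = 0.0304), while the endothelial factor Sox18 fell by 0.43 (adjusted p = 0.0238), the adhesion molecule Cntn1 by 0.32 (adjusted p = 0.0146) and dystrobrevin alpha, Dtna, by 0.33 (adjusted p = 0.011). The brightest Cntn1 probeset, however, differed by -0.0012 (SE 0.04, adjusted p = 0.999).

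Neuronal signalling genes did not pass at 8 h. None passed among 20 GABA and glycine receptor genes (median 0.05), 30 glutamate receptors and scaffolds (0.04), 29 potassium, calcium and HCN channels (0.02), 26 dopamine, opioid and stress peptide genes (0.06) and 22 medium spiny neuron markers (-0.03). Drd1 differed by -0.08 (SE 0.10), Drd2 by -0.15 (SE 0.17), Gabra2 by -0.15 (SE 0.13), Grin2b by 0.00 (SE 0.08), Kcnma1 by -0.12 (SE 0.20) and Pdyn by 0.06 (SE 0.15). Of 28 immediate early genes none passed, and their median was -0.02 at 8 h. Fos differed by 0.04 (SE 0.23), Arc by -0.13 (SE 0.19), Npas4 by -0.11 (SE 0.24) and Egr1 by -0.09 (SE 0.08). A missed threshold does not show that these genes were equal in both groups.

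**Figure D3:**
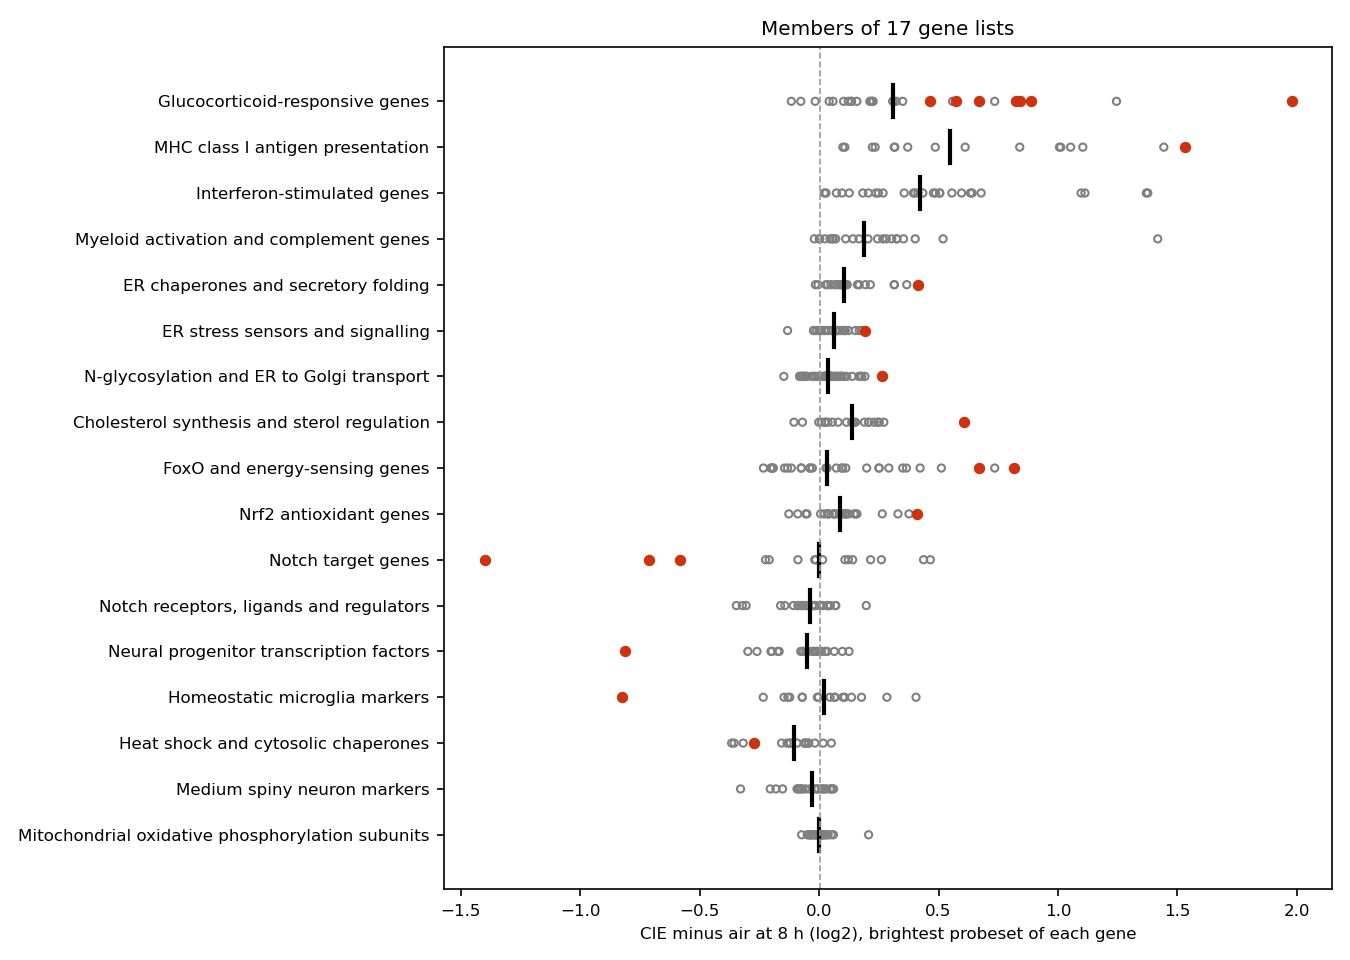
Change between CIE and air at 8 h (log2) of each measured member of 17 gene lists at its brightest probeset, with filled points for members that passed 0.05, short vertical lines for list medians and a dashed line for the median of all 18193 genes (0.00). The glucocorticoid-responsive list has 7 filled points and a median of 0.31, and all 28 interferon-stimulated genes lie above 0 with none filled.

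**Figure D4:**
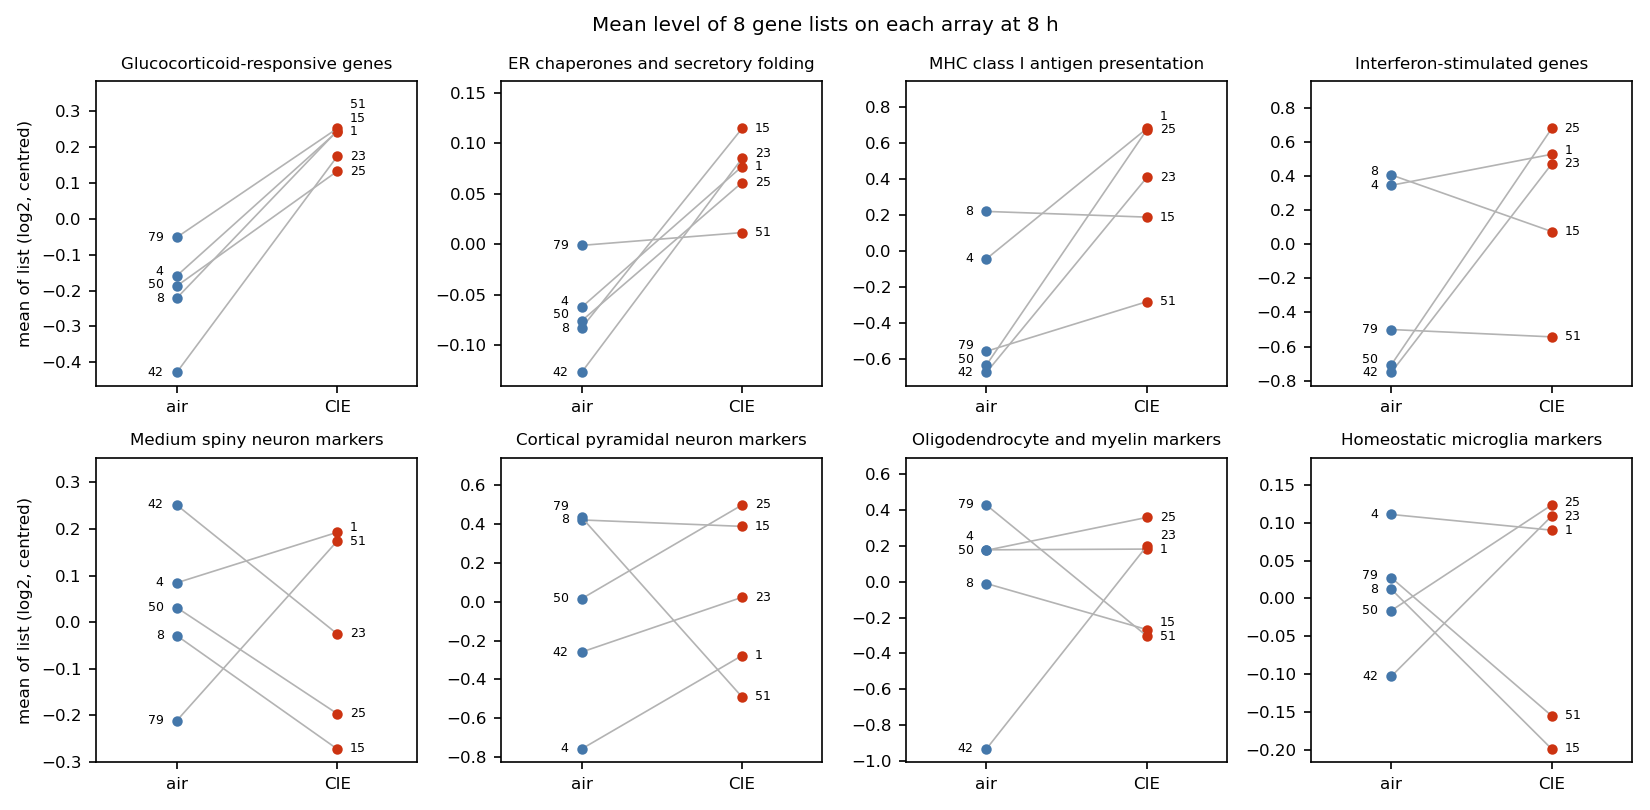
Mean level of 8 gene lists on each array at 8 h, in log2 units with each gene centered on the 10 arrays. Mouse numbers stand beside the points, and lines join the arrays of 1 inferred hybridization set. The groups do not overlap for glucocorticoid-responsive genes (Ctrl -0.43 to -0.05, CIE 0.13 to 0.25), while interferon-stimulated genes split the Ctrl arrays, with 4 and 8 high and 42, 50 and 79 low.

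The 8 h change was set against those at 0 h, 72 h and 7 d by testing the difference of the changes, each time having its own Ctrl mice. Of the probesets past 0.01 at 8 h, 11 also passed at 0 h in the same direction, 39.3% of the 28 and 1.53% of the 717 of 0 h. At 0.05 these were 46, 45.5% of the 101 and 2.6% of 1772. At 72 h and at 7 d no probeset of the whole array passed 0.05 by limma, though 3242 and 1056 had an unadjusted p under 0.05, against 3342 at 8 h. If no gene changed, about 1 in 20 of the 45037 probesets would have such a p.

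Between 8 h and 0 h, 7 probesets differed at 0.05 (0.0155%). Manf changed by -0.08 at 0 h, and its change at 8 h was higher by 0.49 (SE 0.08, adjusted p = 0.0131). Depp1, at its other probeset, changed by -0.26 at 0 h, and the difference was 1.07 (SE 0.20, adjusted p = 0.0427). Adm, the vasodilator peptide adrenomedullin, was at -0.34 at 0 h and 0.48 at 8 h (difference 0.82, adjusted p = 0.0448). Rpain had the lower change at 8 h, with a difference of -0.33 (SE 0.06, adjusted p = 0.0415). For Emcn, an endothelial sialomucin, the differing time was 0 h, where the change was -0.58 against -0.17 at 8 h (adjusted p = 0.0238). The Manf difference passed in 9 of 10 fits that each left out 1 array and had an adjusted p of at most 0.0657, while the others were less stable, Depp1 passing in 1 of 10 and Rpain in 2. With the hybridization sets as a block, Manf and Depp1 kept 0.05 (adjusted p = 0.0408 for both), while Adm (0.0877), Emcn (0.0943) and Rpain (0.198) did not. The number of differing probesets moved from 7 to 0 without Ctrl 4, 1 without Ctrl 8, 2 without Ctrl 50, 3 without Ctrl 79, 2 without CIE 1, 21 without CIE 15, 1 without CIE 23, 2 without CIE 25 and 2 without CIE 51.

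Nrarp changed by -0.06 at 0 h (adjusted p = 0.875) and fell at 8 h, but the difference of -0.66 did not pass (adjusted p = 0.272). Hes5 was already lower at 0 h, by -0.996, as were Fcrls by -1.21 and Nr2e1 by -0.66, and Xdh was already higher by 0.68, Plin4 by 2.33 and Insig1 by 0.62. The glucocorticoid-responsive list had a median of 0.42 at 0 h beside its 0.31 at 8 h, then 0.01 (72 h) and -0.07 (7 d). Immediate early genes had a median of -0.25 at 0 h, and ER chaperones one of -0.03.

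Between 8 h and 72 h, 8 probesets differed at 0.05 (0.0178%). The change in Hes5 was -0.01 at 72 h, and the 8 h change was lower by a difference of -1.39 (SE 0.19, adjusted p = 0.000465). That of Xdh was -0.08 at 72 h, and the difference was 1.00 (SE 0.17, adjusted p = 0.00703). These 2 genes passed with any 1 array left out. Fcrls (-0.86, adjusted p = 0.0449), Manf (0.42, adjusted p = 0.0493) and Sox21 (-0.65, adjusted p = 0.0493) passed in 1 or 2 of 10 such fits. With the block, Manf and Sox21 no longer passed (adjusted p = 0.131 for both). The 8 probesets became 3 without Ctrl 4, 8, 42 or 50, without CIE 1 or without CIE 25, 4 without Ctrl 79 and 5 without CIE 51.

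Between 8 h and 7 d, 15 probesets differed (0.0333%). Hes5 differed by -1.40 (adjusted p = 9.05e-05), the brightest alpha-globin probeset by -2.63 (adjusted p = 9.05e-05), Osgin1 by 0.60 (adjusted p = 0.000801), Sox21 by -0.75 (adjusted p = 0.00262), Xdh by 0.97 (adjusted p = 0.00305), 5330439K02Rik by -0.49 (adjusted p = 0.00935) and Fcrls by -0.87 (adjusted p = 0.0116), and all of them passed with any 1 array left out. Beside its 8 h change of -2.18, alpha-globin had a change of -1.02 immediately after exposure, -0.25 at 72 h and 0.44 at 7 d. Nr2e1 differed by -0.90 (adjusted p = 0.0179) and passed in 6 of 10 such fits, with an adjusted p of 0.0605 under the block.

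**Figure D5:**
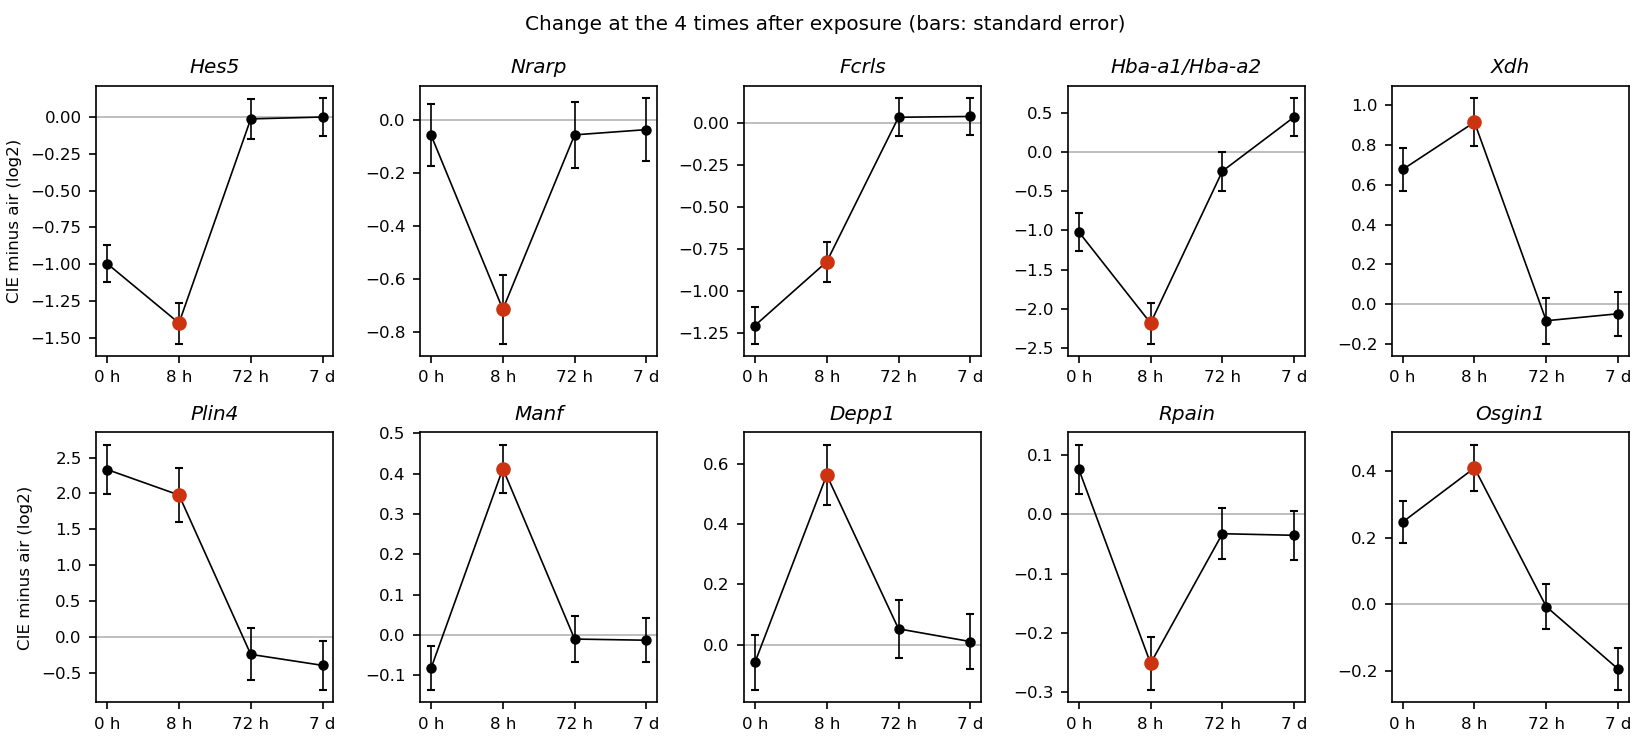
Change between CIE and air (log2, bars are standard errors) for 10 genes at all 4 times, each time with its own air group and the 8 h value in red. Hes5 and Xdh are away from 0 at 0 h and 8 h and within 0.1 of it at 72 h and 7 d, and Manf stands apart from 0 at 8 h, at 0.41.

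Single arrays decided part of the count. The 28 probesets became 17 without Ctrl 4, 17 without Ctrl 42, 13 without Ctrl 50, 16 without CIE 1, and 19 to 26 with any other array left out. The 101 became 43 without Ctrl 50, 62 without Ctrl 79, 46 without CIE 1 and 56 without CIE 15. Of the 20 genes, Hes5, Xdh, Fcrls, Manf and Nr2e1 passed 0.01 whichever array was left out, 15 lost it in at least 1 fit, and all 20 kept 0.05 in all 10, with Plin4 highest at 0.0486 without Ctrl 42. Globin and the bright Rbm3 probeset also kept 0.01 throughout. Of the genes named with a symbol of their own that passed 0.05 and not 0.01, Tsc22d3 and Pou3f3 kept 0.05 whichever array was left out. Cebpd lost it without Ctrl 42 alone (adjusted p = 0.0541), Fcgr2b and Dtna without Ctrl 50 alone (0.0509 and 0.0548), Hif3a without CIE 15 alone (0.0621) and Mt1 without CIE 1 alone (0.0614), and the others lost it in at least 2 of the 10 fits. With the hybridization sets as a block, all 20 genes kept 0.05 and 15 kept 0.01, and 0.01 was lost by Rpain (adjusted p = 0.0111), Bclaf1 (0.0129), and Fzd2, Alg12 and Plin4 (0.0186 each). The block ended the 0.05 call of Herpud1 (adjusted p = 0.0517), Dnajb1 and Abcb1a (0.0526 each), Fabp7 (0.0567), Galnt15 (0.0636), Ceacam10 (0.0642), Sgk1 (0.0681), the dim Rbm3 probeset (0.0748), Msi1 (0.0794), Fkbp5 (0.0807), Rfx4 (0.0933) and Rasd1 (0.101). Fitted on the 8 h arrays alone, which leaves 8 residual degrees of freedom in place of 37, 6 probesets passed 0.01, and 2 of the 20 genes kept 0.01 and 6 kept 0.05.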

How the data were processed

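RNA from nucleus accumbens was hybridized to Affymetrix mouse whole-genome expression arrays. Per the labels and the study's methods, the deposited values are log2 RMA expression: the authors background corrected and quantile normalized each hybridization batch, quantile normalized all arrays together and removed batch effects with ComBat (versions are not given in the sources used here). No scanner files were used. Arrays were assigned to groups by their labels.

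Linear models with 8 group means were run on all 45037 probesets of the 45 arrays (limma 3.58.1, R 4.3.3), and p-values were adjusted by the method of Benjamini and Hochberg over all probesets. Fits were tested on simulated data. Symbols came from the platform annotation: 34945 probesets had 1 symbol (18193 genes), 932 several and 9160 none. Positions and promoters came from RefSeq (GRCm38.p6). Hybridization batches are not labelled. They were inferred as 6 sets of 6 to 8 arrays that share tied values, and 5 sets held 1 CIE and 1 Ctrl array of 8 h.

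Genes were named where they passed 0.01 (probeset with the smallest p), where they were among the 12 largest rises or falls past 0.05, where they were among 6 passing members of a list, as fixed anchors of a list, or where their change differed between times. The 44 lists (927 measured genes) were read at the brightest probeset, and single members beyond the rule were named after their values were seen. The comparison, members and lists were chosen with earlier results of these data known. P-values rest on the spread between mice, and the number of arrays limits the precision. Batch effects had been removed from the values beforehand, and the main fit took no account of that step. Its effect on the p-values was not tested.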

Additional observations from a re-analysis of the deposited data

Results flagged for a closer look

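In 6 of 212 groups of 5 arrays tested, 1 array stood far from the other 4, and chance gives about 1 in 20 such groups. The gap as a share of the group's range was 0.722 for Sgk1 (Ctrl 42 at 11.62, the others at 11.99 to 12.13), 0.738 for Pnpla7 (Ctrl 42 at 7.48, the others at 8.02 to 8.22) and 0.745 for Pou3f3 (Ctrl 42 at 11.26, the others at 11.39 to 11.44). It was 0.736 for Cntn1 (Ctrl 4 at 12.42), 0.739 for the other probeset of Depp1 (Ctrl 79 at 6.99, the others at 7.06 to 7.08) and 0.821 for the mean of the fatty acid synthesis genes (CIE 51 at -0.12, the others at 0.07 to 0.11). Ctrl 42 is also the array with the lowest oligodendrocyte marker mean.

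The change at 8 h differed from that at 0 h by test for Manf (0.49), Depp1 (1.07), Adm (0.82), Emcn (0.41), Rpain (-0.33), Rab33a (-0.36) and Uri1 (-0.33). Rab33a, a small GTPase, and Uri1, a prefoldin-like protein, were higher in CIE at 0 h, by 0.42 and 0.30, and at 0.06 and -0.03 at 8 h. Against 72 h the change differed for Hes5 (-1.39), Xdh (1.00), Fcrls (-0.86), Manf (0.42), Sox21 (-0.65) and alpha-globin probesets (-1.94 and -2.01).

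Against 7 d it differed for Hes5 (-1.40), Xdh (0.97), Fcrls (-0.87), Manf (0.43), Nr2e1 (-0.90), 5330439K02Rik (-0.49), Osgin1 (0.60), Sox21 (-0.75), Mt1 (0.63), beta-globin (-2.89), alpha-globin probesets (-3.07, -2.63 and -2.69) and the bright probeset of Rbm3 and Rbm3-ps (0.45). With the hybridization sets as a block, Rab33a (adjusted p = 0.198) and Uri1 (0.184) no longer differed from 0 h at 0.05, the alpha-globin probesets from 72 h (0.0872 and 0.0982), or Mt1 (0.147) and Manf (0.0587) from 7 d.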

How the results depend on the processing

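No paired analysis was possible because no mouse number is shared between groups, so the inferred hybridization sets served as a block instead. The 28 probesets past 0.01 became 6 when fitted on the 8 h arrays alone, 119 with array weights and 50 when p-values were adjusted over the 4 times together, and ranged from 13 to 26 with 1 array left out. The 101 past 0.05 became 15 on the 8 h arrays alone and 402 with array weights, and ranged from 43 to 92. The 7 probesets that differed between 8 h and 0 h became 2 with the inferred hybridization sets as a block and 17 over the brighter probesets, and ranged from 0 to 21. No probeset passed 0.01 for that difference by limma (2482 had an unadjusted p under 0.05). The 8 that differed from 72 h became 4 with the block and 67 with array weights, ranging from 3 to 9. The 15 that differed from 7 d became 25 with array weights, ranging from 13 to 18. With the sets as a block, 31 probesets passed 0.01, 23 of them among the 28. The 7 glucocorticoid-responsive genes that rose became 4 with the block, 1 on the 8 h arrays alone and 13 with array weights. For lists, the median of the GABA and glycine receptors moved to -0.0075 with the mean over probesets, and that of dopamine, opioid and stress peptide genes to -0.0062 without CIE 51. Over the named genes, 2803 recalculated values stayed on the same side of their threshold, 370 no longer passed, 25 newly passed and 0 changed sign among those called. Fitted over the brighter probesets alone, 15 of the 20 genes passed 0.01. Dim probesets, such as those of H2-D1, Osgin1, Alg12 and Etnppl, have means over all arrays below the array median, and the cause of the moves was not tested.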

Other observations

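Gene groups outside the main results were described by the same fit. Of 39 RNA splicing factors 1 passed, Bclaf1 was that gene, 14 had a positive change and the median was -0.02. The kinase Clk1, which phosphorylates splicing factors, measured 12.47, 12.41, 12.36, 12.43 and 12.38 in Ctrl and 12.19, 12.05, 12.24, 12.16 and 12.22 in CIE. Its groups did not overlap, yet its change of -0.24 (SE 0.06) did not pass (adjusted p = 0.0688).

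None of 21 circadian clock genes passed (median -0.02), with Per2 at 0.13 (SE 0.13), Dbp at -0.10 (SE 0.08) and Arntl at -0.12 (SE 0.07). None of 17 genes of ethanol, acetaldehyde and acetate metabolism passed (median 0.00), with Aldh2 at 0.06 (SE 0.09) and Adh1 at -0.05 (SE 0.10). Of 19 p53 target genes none passed (median 0.08), and Cdkn1a differed by 0.47 (SE 0.20, adjusted p = 0.55) without overlap. None passed among 29 oxidative phosphorylation subunits (median 0.00), 21 cytosolic ribosomal protein genes (median 0.00), 23 Bmp and Tgf-beta genes (median -0.01) and 19 genes of phosphatidylethanolamine and phosphatidylcholine metabolism (median -0.01).

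Among cell type markers, 1 of 20 endothelial and pericyte genes rose, Abcb1a, with a list median of -0.09, and none passed among 15 oligodendrocyte (median 0.03), 11 oligodendrocyte precursor (median -0.03), 15 striatal interneuron (median 0.05), 15 cortical pyramidal (median 0.06) and 17 septal, pallidal and thalamic markers (median 0.03).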
